A study of Mus musculus with 3 samples.

Results

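The 10 genes described here encode receptors for acetylcholine in the mouse hippocampus, out of 19504 genes measured. They were taken by name from the array annotation as 4 muscarinic receptors (Chrm1, Chrm2, Chrm3 and Chrm4) and 6 nicotinic subunits (Chrna3, Chrna4, Chrna5, Chrna7, Chrnb2 and Chrnb4), and all 10 were found, each with 1 probe set. Hippocampal RNA of male C57BL/6J mice, 11 weeks old, was pooled within each of 3 groups, with 1 Affymetrix whole-transcript array for each pool. RE mice (4 in the pool) had 3 weeks of restraint stress, 6 h per day, and then 20 μg of extracellular vesicles (EVs) from the serum of running donors. RS mice (4 in the pool) had the same restraint and 20 μg of EVs from sedentary donors. NV mice (3 in the pool) were not restrained and received vehicle, which the labels give as PBS. All injections went into the cerebral ventricle and tissue was taken 3 days later. The title of the NV sample reads vesicle where its treatment note reads vehicle, and all 3 samples are described as ventral hippocampus in one label and hippocampus in another. Restraint and EV injection both separate RS from NV, so their parts cannot be told apart, while by design RE and RS differ only in the exercise of the donors.

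Acetylcholine reaches the hippocampus mainly through axons from the medial septum and diagonal band, whose cell bodies lie outside it. Muscarinic receptors are coupled to G proteins. M1, M3 and M5 act through Gq and phospholipase C and raise excitability, whereas M2 and M4 act through Gi/o, lower cAMP and often sit on nerve terminals, where they restrain release. Nicotinic receptors are cation channels built of several subunits, and the mix of subunits sets how well they bind nicotine, how fast they desensitize and how much calcium they pass.

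The values are log2 signals, so a difference of 1 is 2-fold, which is the threshold of the study's methods. Genes past it are called higher or lower. With 1 array per group there is no spread between replicates, a difference has no replicate check and no test could be made, and the number of arrays limits the precision. A background level of 6.01 was set from 1450 olfactory, vomeronasal and taste receptor genes, which the hippocampus does not use. Signals of different genes come from different probes and are not compared as amounts of RNA. The background level is set from other genes, and a summed signal of a marker list is weighted towards its genes with the highest signal.

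Between RS and NV, Chrm1, Chrm3 and Chrna5 were higher and Chrna3 was lower, and the other 6 genes were below the threshold. Thus 3 of 10 receptor genes were higher, against 3.52% of all genes, and 1 of 10 was lower, against 4.29% of all genes. The median of the 10 differences was -0.16, beside -0.01 over all genes, since the members went both ways. Between RE and RS none of the 10 passed 2-fold, where 1.16% of all genes did.

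**Figure D1:**
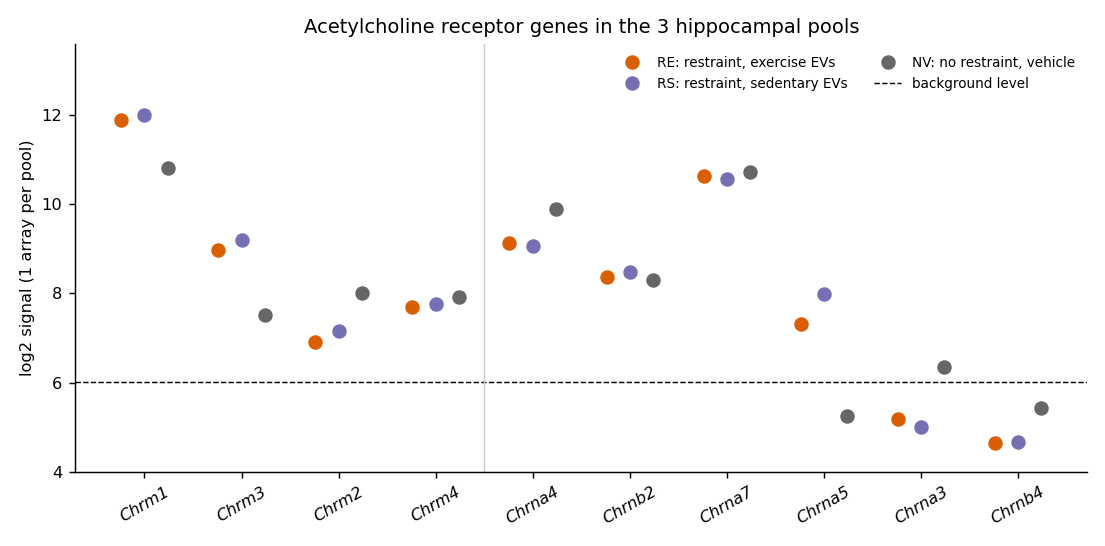
Log2 signal (vertical axis) of each receptor gene in the RE, RS and NV pools, 1 point per array, with the background level of 6.01 as a dashed line. The RE and RS points lie beside each other for most genes. They lie apart from NV for Chrm1, Chrm3, Chrna5 and Chrna3, and also, below NV, for Chrm2, Chrna4 and Chrnb4.

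Both Gq-coupled muscarinic receptors of the set were higher in the restrained pools. Chrm1 encodes M1, the main muscarinic receptor of cortical and hippocampal principal neurons. Its log2 signal was 11.90 in RE, 12.00 in RS and 10.82 in NV. Both restrained pools lay above NV by more than the threshold, with a difference of 1.18 between RS and NV, a fold of 2.26, and of 1.08 between RE and NV. Chrm3 encodes M3, best known from glands and smooth muscle and also present in forebrain neurons. Its signal was 8.97 in RE, 9.20 in RS and 7.52 in NV. The difference was 1.68 between RS and NV, a fold of 3.21, and 1.45 between RE and NV, a fold of 2.74. Of all 19504 genes, 104 had a difference between RS and NV at least as high as that of Chrm3, itself included, and 404 as high as that of Chrm1.

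The Gi-coupled receptors did not share this. Chrm2 encodes M2, a receptor of cholinergic terminals and of some interneurons. Its signal was 6.92 in RE, 7.15 in RS and 8.01 in NV, so that both restrained pools were below NV. The difference from NV was -0.86 in RS, which is under the threshold, and -1.09 in RE, a fold of 2.13, so Chrm2 was called lower only in the pool that received exercise EVs. The difference between these 2 pools was itself small, at -0.23. Chrm4 encodes M4, which is most abundant in the striatum. It had 7.69 in RE, 7.77 in RS and 7.92 in NV, and its 3 values lay within 0.23 of each other. Chrm5, the remaining muscarinic gene, encodes the Gq-coupled M5 known from midbrain dopamine neurons and is not among the 10. It had 7.58 in RE, 6.67 in RS and 6.78 in NV, and its difference of 0.91 between RE and RS did not pass 2-fold.

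Several markers of principal neurons were higher beside Chrm1 and Chrm3. Of 7 pyramidal neuron markers, 3 were higher in RS than in NV and 0 were lower. Over all genes 3.52% were higher and 4.29% lower. The 4 markers not called ran from 0.33 for Wfs1 to 0.80 for Fibcd1, and Wfs1 stood at -0.32 between RE and NV. The median difference of the 7 was 0.80. The log2 of their summed signal, to which Neurod6 contributes most, was 15.57 in RE, 15.89 in RS and 14.00 in NV. Of 7 dentate granule cell markers, 5 were higher and 0 lower, with a median difference of 2.70. The 2 not called were Plk5 at 0.01 and Calb1 at -0.22. The log2 of the summed signal of the 7, to which Calb1 contributes most, was 13.93 in RE, 14.16 in RS and 13.29 in NV. Between RE and RS, 1 marker of each list was lower and 0 were higher. The pyramidal one was Iyd, just past 2-fold, with 8.54 in RE and 9.54 in RS. The granule cell one was Tdo2, with 6.64 in RE and 7.71 in RS. In each list 6 of 7 differences between RE and RS were negative, with a median of -0.33, beside -0.07 over all genes. All 7 pyramidal and all 7 granule cell markers were above the background level in at least 1 pool. Among them Neurod6, a transcription factor of pyramidal neurons, had 15.28 in RE, 15.61 in RS and 13.16 in NV, and Prox1, which marks granule cells, had 12.19 in RE, 12.52 in RS and 9.82 in NV. Beside Chrm2, 2 of 7 GABA interneuron markers were lower in RS than in NV, Gad2 and Slc32a1, and 0 were higher. Their median difference was -0.66. Below the threshold Gad1 (-0.48), Sst (-0.66) and Vip (-0.77) went down, and Pvalb (0.95) and Lhx6 (0.68) went up. The log2 of the summed signal of the 7, to which Sst contributes most, was 16.03 in RE, 15.69 in RS and 16.41 in NV. In bulk tissue, fewer cells of a type and less RNA per cell cannot be told apart. The part of these cell types in the receptor differences was not tested.

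**Figure D2:**
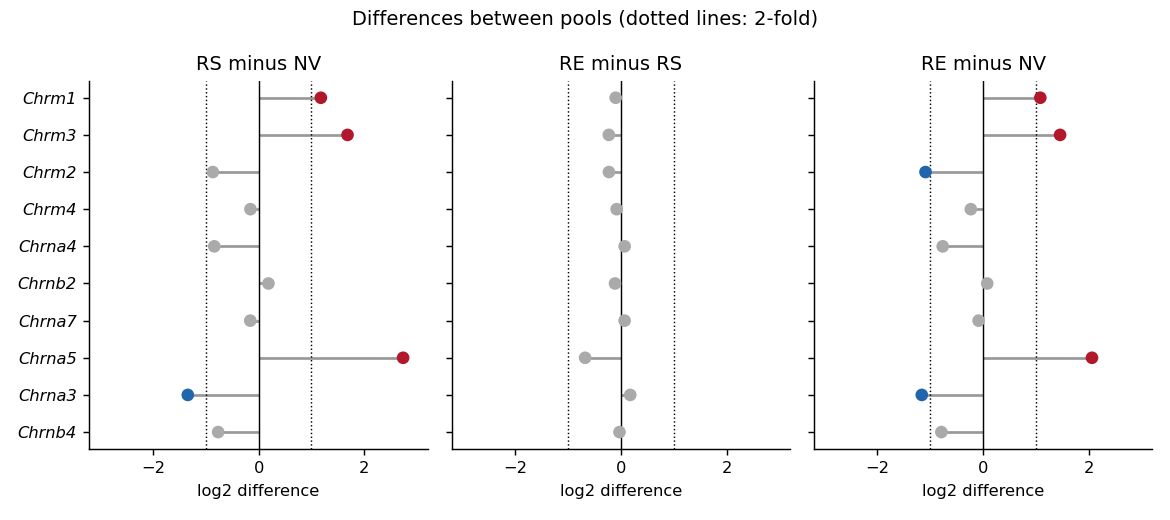
Log2 difference (horizontal axis) of each receptor gene for RS minus NV, RE minus RS and RE minus NV, with dotted lines at 2-fold, red points for genes called higher and blue points for genes called lower. The middle panel holds no coloured point, and the outer panels share Chrm1, Chrm3 and Chrna5 on the right and Chrna3 on the left.

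The α4, β2 and α7 subunits make up the nicotinic receptors that are most abundant in the brain. Chrna4 and Chrnb2 form the heteromeric receptor with the highest affinity for nicotine. Chrna4 had a signal of 9.13 in RE, 9.06 in RS and 9.90 in NV. Its difference of -0.84 between RS and NV did not pass the threshold, and RE stood at -0.77 from NV. Chrnb2 had 8.37 in RE, 8.48 in RS and 8.30 in NV, a range of 0.19 over the 3 arrays. Chrna7 forms the homomeric receptor that binds α-bungarotoxin and passes calcium, and is well known from hippocampal interneurons. It had 10.63 in RE, 10.56 in RS and 10.72 in NV. Its range of 0.16 was the smallest of the 10 genes. None of these 3 subunits passed 2-fold in any of the 3 comparisons.

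Chrna5 had the largest deposited difference of the 10 genes. The α5 subunit is an accessory subunit, which forms no channel of its own and joins receptors that hold α4 and β2 or α3 and β4, where it raises calcium permeability. Its signal was 7.31 in RE, 7.98 in RS and 5.25 in NV. Both restrained pools were above the background level and NV was below it, so the size of the difference has only a lower bound. Set against the background level in place of the NV signal, Chrna5 was at least 3.93-fold higher in RS and at least 2.46-fold higher in RE. The deposited signals themselves differ by 2.73 between RS and NV and by 2.06 between RE and NV. Chrna5 also had the largest difference of the 10 genes between RE and RS, at -0.68, a fold of 1.60 that did not reach the threshold. In that comparison 4.03% of all genes were as low or lower.

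Chrna3 and Chrnb4 encode the α3 and β4 subunits, which together form the receptor of autonomic ganglia and of the medial habenula. Chrna3 had 5.18 in RE, 5.01 in RS and 6.34 in NV, and only the NV value was above the background level. The deposited signals differed by -1.34 between RS and NV and by -1.16 between RE and NV, both past 2-fold. Set against the background level in place of the RS or RE signal, Chrna3 was at least 1.26-fold lower in each, and this bound is under the threshold. After removal of the trend of the difference on mean signal the difference between RE and NV was -0.997, just short of 2-fold. Chrnb4 had 4.63 in RE, 4.66 in RS and 5.42 in NV. All 3 values were below the background level, so its difference of -0.76 between RS and NV is of uncertain size.

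Chrna5, Chrna3 and Chrnb4 lie side by side on mouse chromosome 9, with Chrna5 on the plus strand and the other two on the minus strand. Chrna5 was called higher and Chrna3 lower in both restrained pools, and Chrnb4 was not called. The place of the probes is not given, so whether any fall in a stretch shared by Chrna5 and Chrna3 was not tested. The sequences before the start sites of the 3 genes are shown because Chrna5 and Chrna3 are neighbours with opposite calls. They are the 250 bases before each start that RefSeq lists (GRCm38.p6), read 5′ to 3′ on the strand of the gene, with the letters GGGCGG, the core of the GC box bound by Sp1, in capitals on either strand. Chrna5 has 2 listed starts, the first with the window chr9:54980630-54980879 (+) and the second with chr9:54981238-54981487 (+). The window of Chrna3 is chr9:55026563-55026812 (-) and that of Chrnb4 is chr9:55048545-55048794 (-).
Chrna5, first start: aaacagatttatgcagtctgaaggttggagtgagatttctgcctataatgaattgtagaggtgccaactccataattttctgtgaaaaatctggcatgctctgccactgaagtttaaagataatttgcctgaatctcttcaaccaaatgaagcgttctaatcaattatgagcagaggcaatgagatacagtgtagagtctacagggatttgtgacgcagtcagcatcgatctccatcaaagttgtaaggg
Chrna5, second start: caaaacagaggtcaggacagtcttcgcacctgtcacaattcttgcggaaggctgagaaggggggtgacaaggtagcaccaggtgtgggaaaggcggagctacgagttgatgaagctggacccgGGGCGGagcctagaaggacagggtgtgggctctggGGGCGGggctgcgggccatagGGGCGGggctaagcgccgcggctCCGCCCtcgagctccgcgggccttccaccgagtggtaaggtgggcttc
Chrna3: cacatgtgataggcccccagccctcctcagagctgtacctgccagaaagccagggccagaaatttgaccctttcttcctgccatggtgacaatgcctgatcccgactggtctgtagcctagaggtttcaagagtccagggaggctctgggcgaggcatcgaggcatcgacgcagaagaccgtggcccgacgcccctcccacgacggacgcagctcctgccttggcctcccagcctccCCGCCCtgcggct
Chrnb4: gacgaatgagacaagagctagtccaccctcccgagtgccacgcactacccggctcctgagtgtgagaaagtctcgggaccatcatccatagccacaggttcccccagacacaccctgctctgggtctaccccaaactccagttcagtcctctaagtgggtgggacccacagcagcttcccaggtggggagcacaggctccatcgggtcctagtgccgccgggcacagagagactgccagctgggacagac

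The 2 starts of Chrna5 differed in sequence. The window of the first start had a GC content of 40.0% with 3 CG dinucleotides and no GGGCGG, and that of the second had 65.2% with 17 CG dinucleotides and 4 GGGCGG. Chrna3 had 63.2%, 13 CG dinucleotides and 1 GGGCGG, and Chrnb4 had 61.2%, 8 CG dinucleotides and none. Over all 32851 listed starts the medians were 52.4% and 6 CG dinucleotides, and 32.7% of windows held GGGCGG on either strand. Windows were found for 9 of the 10 genes, with 10 starts, of which 6 held GGGCGG. The array does not separate the starts. CCAAT, on either strand, stood in the windows of Chrm2 and Chrm4 among the 10 and in 33.8% of all windows. TATAAA, on either strand, stood in 0 of the 10 and in 12.4% of all windows.

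The genes on either side of the cluster did not show differences of this size. Of 8 neighbours, 4 on each side, 7 were measured, and 0 passed 2-fold in any of the 3 comparisons. On the side of Chrna5, the proteasome gene Psma4 had a difference of 0.57 between RS and NV. Hykk, a hydroxylysine kinase, had 0.71 with its NV signal below background, and AY074887 had 0.28 at a signal below background. Ireb2, an iron regulatory protein, had 0.04. On the side of Chrnb4, Ube2q2, a ubiquitin-conjugating enzyme, had -0.34 and Fbxo22, an F-box protein, had -0.52. Nrg4, a neuregulin, had -0.34, with only its NV signal above background. The differences of Hykk, AY074887 and Nrg4 are therefore of uncertain size.

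**Figure D3:**
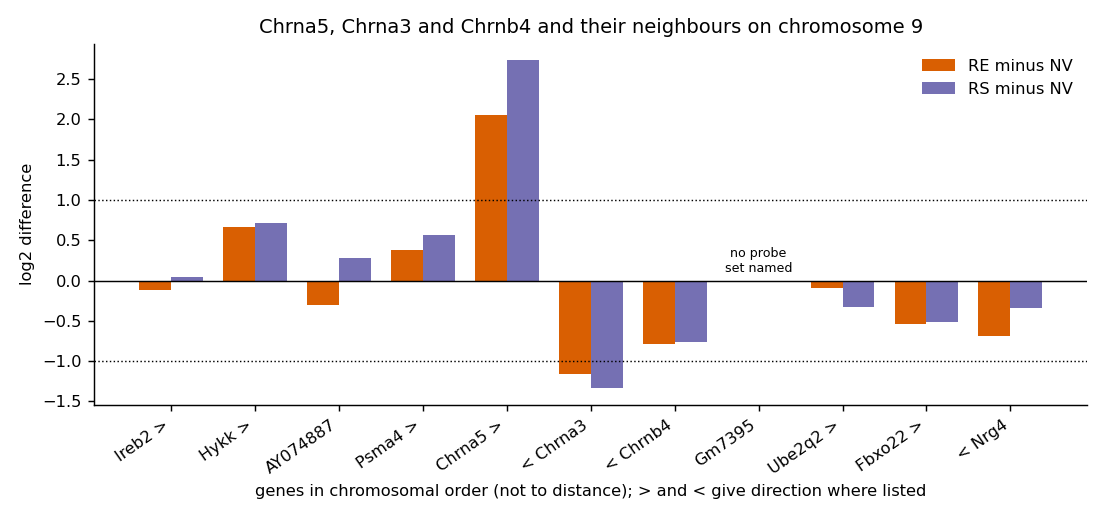
Log2 difference (vertical axis) for RE minus NV and RS minus NV of Chrna5, Chrna3, Chrnb4 and their neighbours in chromosomal order, with dotted lines at 2-fold. Chrna5 stands alone above the upper line, and Chrna3 alone is below the lower one.

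Several cell type markers moved beside the nicotinic genes. As a scale for their counts, the 2-fold line was crossed upwards by 3.52% and downwards by 4.29% of all genes from NV to RS. From RS to RE, 1.16% of all genes crossed it in either direction. The dentate granule cell markers, of which 5 of 7 were higher in RS than in NV as Chrna5 was, were given above. Of 6 medial habenula markers, a region rich in α3 and β4, 1 was lower in RS than in NV and 0 were higher. Their median difference was -0.45. The log2 of their summed signal, to which Nwd2 contributes most, was 10.44 in RE, 10.42 in RS and 11.33 in NV. The marker called lower was Pou4f1, with 4.47 in RE, 3.80 in RS and 7.04 in NV. Nwd2 differed by -0.96 between RS and NV, under the threshold, and by -1.04 between RE and NV, past it. Htr5b, also above the background level, differed by -0.39 between RS and NV. The habenula markers Tac2, Gpr151 and Irx1 were below the background level in all 3 pools. Of 6 thalamus markers, 2 were lower in RS than in NV, Tcf7l2 at -4.68 and Slc17a6 at -3.30, and 1 was higher, Prkcd at 1.98. Tcf7l2 had 8.54 in RE, 8.21 in RS and 12.89 in NV. Lef1 and Gbx2 were below background in all 3 pools. Rora has 3 probe sets, with a difference of -0.27 in the one used and of -1.42 and -0.58 in the others. The median difference of the 6 markers was -0.28. The log2 of their summed signal, to which Tcf7l2 and Slc17a6 contribute most in NV, was 11.10 in RE, 11.10 in RS and 13.66 in NV. Of 7 ventral hippocampus markers, 6 were lower in RS than in NV and 0 higher, and 3 were higher in RE than in RS, with a median difference of -2.26 between RS and NV and a log2 of summed signal of 15.18 in RE, 14.24 in RS and 16.10 in NV. All 3 measured oligodendrocyte markers were higher in RS than in NV, and of the 3 astrocyte and 3 microglia markers only Gfap was. Of 7 entorhinal, subicular and neocortical markers 0 passed 2-fold between RS and NV. The part of these tissues in the nicotinic differences was not tested.

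**Figure D4:**
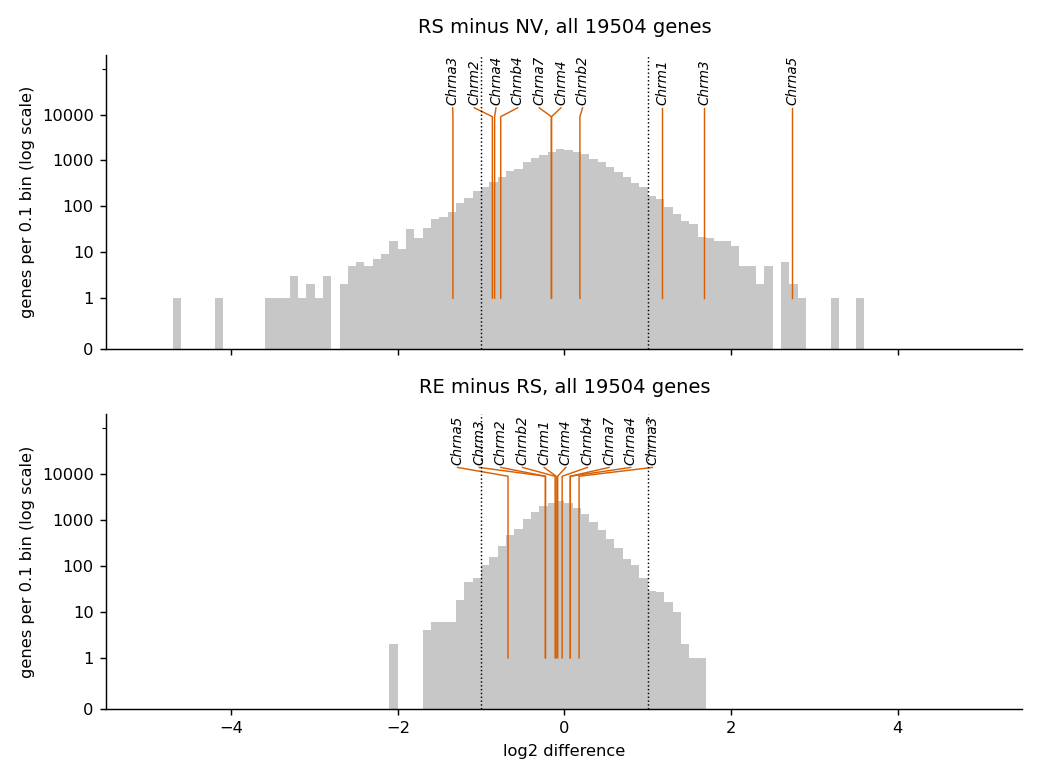
Number of genes (vertical axis, log scale) by log2 difference (horizontal axis, bins of 0.1) for RS minus NV above and RE minus RS below, with the 10 receptor genes marked by vertical lines and dotted lines at 2-fold. Chrna5 lies at 2.73 in the upper distribution, with its NV signal below background, and all 10 genes lie between the dotted lines of the lower one.

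To ask whether exercise EVs changed receptor expression in restrained mice, RE was compared with RS. Of the 10 genes 0 were higher and 0 lower. The differences ran from -0.68 for Chrna5 to 0.18 for Chrna3, with a median of -0.09, beside -0.07 over all genes. All 4 muscarinic genes had negative differences, between -0.23 and -0.08, and the 6 nicotinic genes were split, with 3 above and 3 below 0. Apart from Chrna5, no gene differed by more than 0.23 in size. At a threshold of 1.5-fold, 1 of 10 passed, Chrna5, against 9.79% of all genes, and between RS and NV 7 of 10 did, against 25.5%. Among all genes 86 were higher and 141 lower in this comparison, or 123 and 104 once the difference was centred on its median.

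RE was also set against NV, which shares the RE array with the comparison just given and the NV array with the first, so it is no independent repeat of either. Here 3 of 10 receptor genes were higher, against 2.87% of all genes, and 2 of 10 were lower, against 5.12%. The 3 were Chrm1, Chrm3 and Chrna5, as between RS and NV, and the 2 were Chrna3 and Chrm2. The median was -0.16, beside -0.06 over all genes.

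The other acetylcholine receptor genes were mostly at background. Of 11 measured, 9 were below the background level in all 3 pools, among them the muscle subunits Chrna1, Chrnb1, Chrnd, Chrne and Chrng, and Chrna2, Chrna6, Chrna10 and Chrnb3. Chrna9, a subunit of the cochlear hair cell receptor, was the only one past 2-fold in any of the 3 comparisons. It had 5.60 in RE, 5.92 in RS and 6.99 in NV, a difference of -1.07 between RS and NV and -1.39 between RE and NV, with only the NV value above background, so that it was at least 1.98-fold lower in each.

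Genes that make, move and split acetylcholine did not pass the threshold. Of 12 measured, 0 were higher and 0 lower in any comparison, and their median difference was -0.03 between RS and NV. Chat, which makes acetylcholine, had 3.05 in RE, 2.81 in RS and 3.17 in NV, and the vesicular transporter Slc18a3 had 2.86 in RE, 3.03 in RS and 2.78 in NV. Neither reached the background level in any pool, nor did Slc5a7, the choline transporter of cholinergic terminals, or Bche, butyrylcholinesterase. Of 7 measured markers of basal forebrain cholinergic neurons, 5 were below background in all 3 pools and 0 passed 2-fold between RS and NV. Ache, the esterase that ends the signal, had 9.03 in RE, 8.83 in RS and 9.18 in NV. Its other probe set, with a lower mean, differed by 0.05 between RS and NV, where this one differed by -0.35. The choline kinase gene Chka had 7.60 in RE, 7.63 in RS and 6.75 in NV, a difference of 0.88 between RS and NV that did not pass. Prima1, the membrane anchor of Ache, had 7.39 in RE, 7.69 in RS and 8.18 in NV.

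Among proteins that fold nicotinic receptors or bind them on the membrane, 3 of 10 were lower in RS than in NV and 0 higher. Over all genes 4.29% were lower and 3.52% higher. The median of the 10 was -0.47, beside -0.01 over all genes. The 3 lower genes were members of the Ly6 family, whose toxin-like fold lets several of them bind nicotinic receptors. Lypd1, also known as Lynx2, had 12.73 in RE, 12.56 in RS and 14.00 in NV, a difference of -1.44 between RS and NV. Lypd6b had 7.76 in RE, 7.84 in RS and 9.34 in NV, a difference of -1.50. Ly6h had 10.46 in RE, 9.69 in RS and 11.17 in NV, a difference of -1.48, and RE stood at 0.77 from RS. Only Lypd1 and Lypd6b were lower in RE than in NV, where 5.12% of all genes were, and 0 of 10 passed between RE and RS. The family did not move as one, since Lynx1 had 12.40 in RE, 12.19 in RS and 12.07 in NV, and Ly6e differed by 0.06 between RS and NV. Below the threshold Lypd6 went down, by -0.54 between RS and NV and by -0.85 between RE and NV. Slurp1 differed by -0.59 between RS and NV, with its signal below background in all 3 pools. The chaperones Ric3 and Tmem35a, which help α7 fold, had differences of 0.51 and -0.40 between RS and NV. Vsnl1, a calcium sensor that binds the α4 subunit, had 0.17. Of the ventral hippocampus markers given above 6 of 7 were lower in RS than in NV as well, and their part in the Ly6 family differences was not tested.

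Downstream of the muscarinic receptors, 25 of 30 listed genes were measured. Of these 5 were higher in RS than in NV, against 3.52% of all genes, and 1 was lower, against 4.29%. The median of the 25 was 0.20, beside -0.01 over all genes. The 3 listed genes for G protein-gated potassium channels, which M2 and M4 can open through Gi/o, were all higher in RS than in NV. Kcnj6 had 11.41 in RE, 11.75 in RS and 9.47 in NV, a difference of 2.27 between RS and NV. Kcnj3 had 13.70 in RE, 14.12 in RS and 12.89 in NV, and Kcnj9 had 9.11 in RE, 8.68 in RS and 7.65 in NV. Adcy1, a calcium-stimulated adenylyl cyclase, had 12.16 in RE, 12.29 in RS and 10.81 in NV. Rgs14, a regulator of G protein signalling known from CA2, had 9.65 in RE, 9.83 in RS and 8.77 in NV. The one lower gene was Plcb4, with 8.70 in RE, 8.17 in RS and 10.70 in NV. The G protein and phospholipase genes that follow M1 and M3 in hippocampal neurons, Gnaq and Plcb1, differed by 0.57 and 0.41 between RS and NV and did not pass. The M-current channel genes Kcnq3 and Kcnq5, which these receptors close, had 0.70 and 0.12. Between RE and NV, Kcnj6, Kcnj9 and Adcy1 were higher and Plcb4 was lower, and between RE and RS 0 of 25 passed. Over all genes 2.87% were higher and 5.12% lower in RE than in NV. Several of the pyramidal and granule cell markers given above were higher beside the muscarinic signalling genes too, and their part was not tested.

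**Figure D5:**
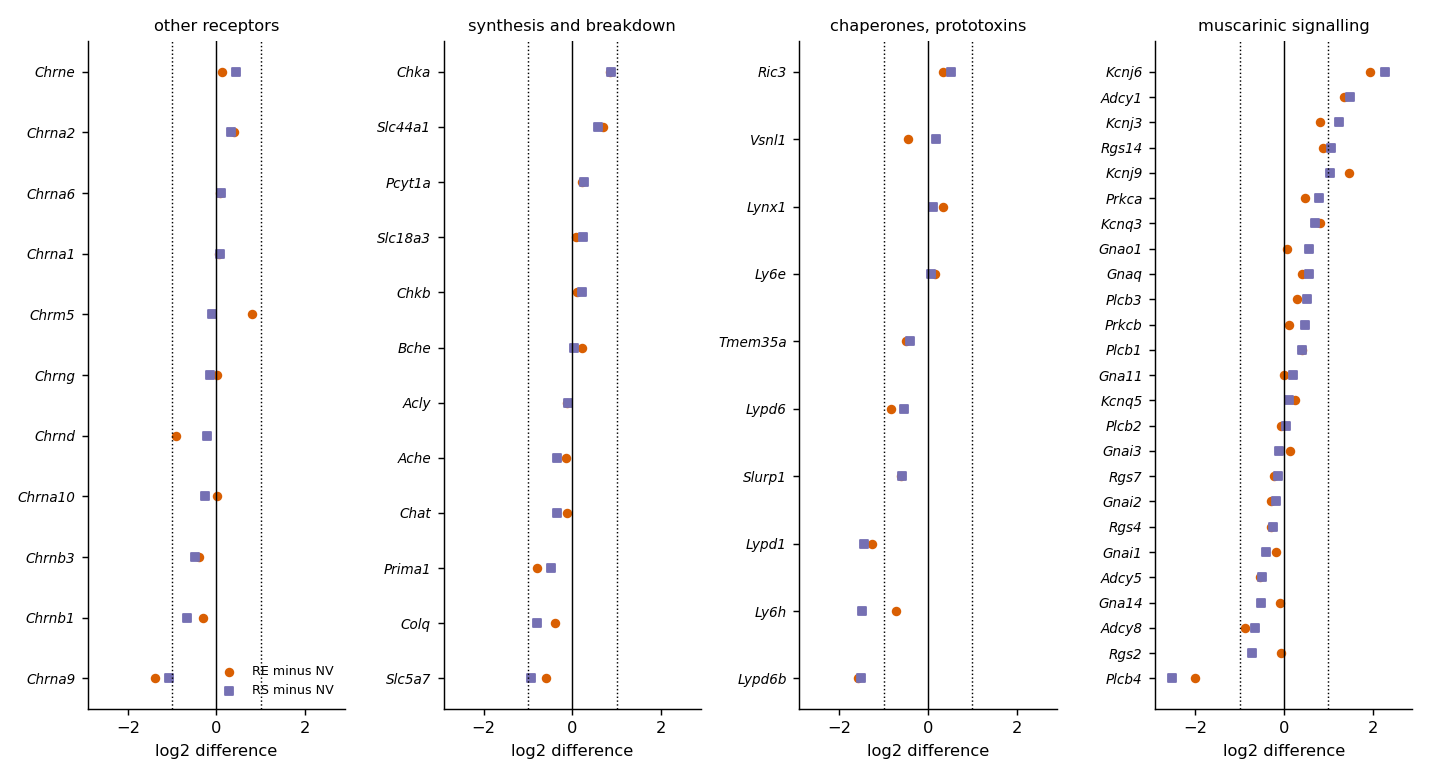
Log2 difference (horizontal axis) for RE minus NV (circles) and RS minus NV (squares) of the other receptor genes, the genes of acetylcholine synthesis and breakdown, the receptor chaperones and prototoxins and the muscarinic signalling genes, each sorted by RS minus NV, with dotted lines at 2-fold. Kcnj6 lies farthest to the right at 2.27 and Plcb4 farthest to the left at -2.52 in RS minus NV.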

How the data were processed

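RNA of 3 hippocampal pools was measured on 1 Affymetrix array each. The authors deposited log2 signals for 22205 probe sets, and the submitters list RMA and Affymetrix Power Tools in their processing notes, with no version. Signals lay between 2.71 and 19.93. Which step gave values over 16 is not stated, and it could affect differences at high signal. Of the probe sets, 19571 had 1 gene symbol and 2634 none here. The one with the highest mean stood for a gene with several, leaving 19504 genes. Arrays have no read depth.

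Log2 differences between pools were compared with a 2-fold threshold. The 95th percentile of the chemosensory receptor genes set the background level. The members and lists were chosen with earlier results of these data known. Named were all members, list genes past 2-fold with up to 4 others of high signal, and the 5 genes nearest in pattern to each called member. Some list genes and markers, such as Ly6e, Kcnq3 and the cluster neighbours, were named for their role or place after values were seen. Alternatives were centring, lowess (span 0.3), the mean of probe sets, a filter on low signal, all rows and 1.5-fold. The work ran in python 3.11.15 with pandas 2.3.3, numpy 2.4.6, statsmodels 0.14.6 for lowess, and matplotlib 3.10.9, and was tested on simulated data. Promoters came from RefSeq.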

Additional observations from a re-analysis of the deposited data

How the results depend on the processing

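With a threshold of 1.5-fold, 7 of the 10 receptor genes passed between RS and NV in place of 4, as Chrm2, Chrna4 and Chrnb4 joined the lower ones, and 1 passed between RE and RS in place of 0, the lower Chrna5. At that threshold 25.5% of all genes passed between RS and NV and 9.79% between RE and RS. Centring, removal of the lowess trend, the mean of probe sets and the filter on low signal left the members' counts within 1.5 times and turned no called difference. Under the lowess trend 4 genes passed between RE and NV in place of 5, since Chrna3 moved to -0.997. Between RE and RS the share of higher genes among all those called was 37.9% as deposited and 54.2% after centring. No paired analysis was possible because each group holds 1 array. For the same reason no array could be left out. Values below the background level of 6.01, those of Chrnb4 in all pools, of Chrna5 in NV and of Chrna3 in RE and RS, limit how well these differences are known.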

Other observations

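The genes nearest in pattern to each called receptor gene were sought among 11942 genes with at least 1 array above background, by the Euclidean distance of the 3 log2 signals after each gene was centred on its own mean. With 3 arrays the measure is a description only, and for Chrna5 and Chrna3 it uses signals below background. Nearest to Chrna5 were Sema5a at a distance of 0.07, Akr1c18 at 0.08, Lct at 0.09, Trpc6 at 0.19 and Gmnc at 0.22. Trpc6 is also one of the granule cell markers used above. Sema5a, a semaphorin, had a log2 signal of 10.70 in RE, 11.35 in RS and 8.55 in NV. Nearest to Chrm1 were E330013P04Rik, Taf1a, Susd6, the sodium channel gene Scn8a and Rpl27, the farthest at 0.03. Nearest to Chrm3 were Brd9, D7Ertd443e, Cracdl, Btbd9 and Abracl, the farthest at 0.07. Nearest to Chrna3 were Lrrtm3, Trp53i11, Bnc2, Prrg4 and Serpinb6d, within 0.05, and nearest to Chrm2 were Camk2n2, Col28a1, Gli1, the calcium channel gene Cacna2d2 and Lilrb4a, within 0.04. Lrrtm3, a synaptic adhesion gene, followed Chrna3 at a distance of 0.0034, with 10.99 in RE, 10.81 in RS and 12.15 in NV.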
